A study of Homo sapiens with 2 samples.

Results

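Ribosome biogenesis and RNA polymerase I (Pol I) genes were examined in PLC8024 cells, also named PLC/PRF/5 or Alexander cells, an epithelial line from a hepatocellular carcinoma. The genes were those on a list of 36 symbols, and all 36 were found among the 58735 genes of the deposited count table. The list held 4 subunits of Pol I, 3 factors that start its transcription and 2 abundant nucleolar proteins. Also on it were 5 proteins that form or serve box C/D small nucleolar ribonucleoproteins (snoRNPs). The rest were 4 DEAD-box helicases, 8 factors of 40S and 10 of 60S subunit assembly. The list was chosen by function with earlier results of these data known. RNA was sequenced from 1 library of wild-type cells (MAEL WT), described as non-treated, and 1 library of cells with MAEL knocked out by sgRNA and Cas9 (MAEL KO), and the study asked which transcripts differ without MAEL. The knockout cells were sorted by mCherry after plasmid transfection and grown from single clones, so clone, transfection, sorting and culture cannot be told apart from the loss of MAEL. With 1 library per group there is no replicate error, and no p-value is given.

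Ribosome production starts in the nucleolus, where Pol I copies the rDNA repeats into one long precursor RNA. Box C/D snoRNPs methylate that precursor at sites chosen by their guide RNAs, helicases remodel it, and assembly factors fold and cut it into the RNAs of the small (40S) and large (60S) subunits. Cells that grow fast, tumor cells among them, make many ribosomes, and large nucleoli are a known trait of hepatocellular carcinoma cells. Many of these genes are known targets of MYC, which binds the E-box, a short DNA element.

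Total counts were 19904136 in MAEL WT and 20833332 in MAEL KO, and 17887 genes had at least 10 counts in 1 library and were tested. All 36 genes of the list were among them. MAEL itself had 1 count in MAEL WT and 0 in MAEL KO, too few to check the labels by its own transcript or to give a fold. All 12 hepatocyte markers were above 3 counts in both libraries, and their summed level was 13456 CPM (counts scaled to the library total) in MAEL WT and 26320 in MAEL KO. Their log2 fold changes (MAEL KO over MAEL WT) ranged from -0.46 to 7.36, with 11 of 12 above 0. Of 5 fibroblast markers 3, of 5 leukocyte markers 2 and of 3 endothelial markers 2 were above 3 counts in each library, with CD3E at 0 in both. DCN, LUM, PTPRC and VWF were at or under 3 counts in both. All 4 epithelial markers were above 3 counts in MAEL WT and 3 in MAEL KO, with summed levels of 1138 and 1702 CPM. The summed levels of the fibroblast, leukocyte and endothelial lists were 13.8 and 8.45 CPM, 64.8 and 35.8 CPM, and 17.7 and 19.5 CPM in MAEL WT and MAEL KO, respectively. The part of these markers in the results was not tested, and in bulk RNA fewer cells of a type and less RNA per cell cannot be told apart.

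The sequence around the transcription start is shown first, because the E-box CACGTG recurred there. Sequences from 250 bases before to 50 bases after the start were found in RefSeq (build GRCh38.p14) for 28 of the 36 genes. The other 8, which were BOP1, DDX18, NOLC1, NOP58, POLR1E, RRP1B, RRP12 and RRS1, had no entry. CACGTG, which reads the same on both strands, was found in 14 of the 28 genes. Each is shown in a window of 30 bases in the direction of transcription, with the E-box in capitals.
BYSL: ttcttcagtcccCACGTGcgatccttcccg
DDX21: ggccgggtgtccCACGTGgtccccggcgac
FBL: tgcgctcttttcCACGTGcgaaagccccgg
GNL3: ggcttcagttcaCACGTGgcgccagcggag
LTV1: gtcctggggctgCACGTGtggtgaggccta
MRTO4: cgtcttccgccgCACGTGgattcagcgcga
NOP14: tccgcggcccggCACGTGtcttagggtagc
NOP2: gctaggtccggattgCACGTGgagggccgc
PES1: tccttggcagggCACGTGcgggaggaagtg
RRP9: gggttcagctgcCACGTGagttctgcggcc
UTP14A: accttgggcCACGTGgaaaccaggggccag
UTP20: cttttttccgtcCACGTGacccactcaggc
UTP4: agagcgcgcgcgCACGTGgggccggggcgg
WDR43: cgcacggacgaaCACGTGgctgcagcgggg

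In 9 of these 14 genes the E-box lay in the first 50 bases after the annotated start, among them FBL at base 7 (window chr19:39846356-39846385, minus strand), MRTO4 at base 15 (chr1:19251807-19251836, plus strand) and PES1 at base 14 (chr22:30591880-30591909, minus strand). In RRP9 the E-box crossed the start, and in DDX21, UTP4, UTP14A and UTP20 it lay before it. An E-box in the bases after the start was held by 32.1% of the 28 genes, by 1.51% of 11398 tested genes with a RefSeq sequence and by 1.97% of the 4478 with at least 1000 counts. In the 250 bases before the start the shares were close, 14.3%, 11.0% and 12.5%. A match of letters is a description and does not show that a factor binds there.

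**Figure D1:**
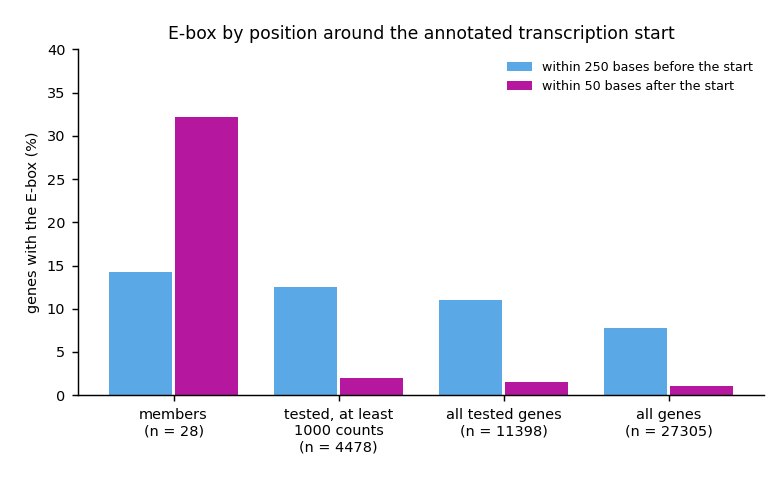
Percent of genes with the E-box CACGTG before (blue) and after (magenta) the annotated transcription start, for the listed genes and for 3 wider sets of genes with a RefSeq sequence. The share after the start was 32.1% for the listed genes and under 2% in each of the wider sets.

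Other short elements were also searched on both strands. CGCGTG was found in 11 of the 28 genes (39.3%, against 21.7% of tested genes), CCGGAA, the core of ETS factor sites, in 15 (53.6% against 32.8%) and TATAAA in 2 (7.14% against 8.60%). Of the tested genes with at least 1000 counts, 24.8% held CGCGTG, 38.9% CCGGAA and 7.48% TATAAA. In the 14 genes with CACGTG the median log2 fold change (MAEL KO over MAEL WT) was 0.75, and in the 14 matched genes without it 0.62. The 8 genes with no entry, among them RRS1 at 1.55 and RRP12 at -0.49, are in neither group. Whether the fold change goes with the E-box was not tested. The bases before the start are shown for NPM1 and FBL, 2 genes of high level that hold no E-box there. Capitals mark CGCGTG and CCGGAA on either strand, 3 places in the first of these sequences being CGCGTG or its overlapping complement.
NPM1 (chr5:171387599-171387848, plus strand): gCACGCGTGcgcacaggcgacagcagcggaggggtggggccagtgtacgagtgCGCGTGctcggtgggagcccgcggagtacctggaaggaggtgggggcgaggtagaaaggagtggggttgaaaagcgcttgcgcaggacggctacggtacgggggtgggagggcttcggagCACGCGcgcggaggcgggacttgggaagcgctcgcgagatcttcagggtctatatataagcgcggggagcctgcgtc
FBL (chr19:39846380-39846629, minus strand): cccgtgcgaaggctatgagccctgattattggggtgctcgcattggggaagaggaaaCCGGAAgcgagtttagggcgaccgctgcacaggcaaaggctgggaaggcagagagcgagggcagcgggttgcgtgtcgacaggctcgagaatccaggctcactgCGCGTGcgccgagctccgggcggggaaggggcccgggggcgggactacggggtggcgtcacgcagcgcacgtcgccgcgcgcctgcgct

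Ribosome biogenesis genes were higher in MAEL KO as a group. Of the 36 genes, 35 had a log2 fold change above 0, where 48% of all tested genes did, and RRP12 alone was lower. The median was 0.72, a fold of 1.65, against -0.04 for all tested genes, and 16.3% of tested genes lay above it. Fold changes were taken from counts normalized by TMM with 1 added, and intervals are 95% Clopper-Pearson limits that cover counting error only. With TMM scaling none of the 36 intervals included 0, but the intervals do not cover the choice of scaling.

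The differences were mostly under 2-fold. A log2 fold change above 1 was seen in 8 of the 36 genes (22.2%), namely RRS1, MRTO4, NCL, NPM1, NOP56, NIP7, FBL and LTV1, and in 10.2% of all tested genes. UTP20 was just under it, at 0.98. FBL and LTV1 were just above it, with intervals that included 1, as did that of NIP7 at 1.09. With protein-coding genes alone FBL and LTV1 were at 0.996 and 0.984, which left 6 genes above 1. With chromosome medians subtracted UTP20 also passed, for 9 genes. No gene of the list was below -1, where 16.5% of tested genes were. None passed 2 in either direction, where 2.16% of tested genes were above and 5.64% below. Since low counts spread more, the tested genes with at least 1000 counts in 1 library were taken as well, and 10.5% of these 5516 genes were above 1, 5.08% below -1 and 61.8% above 0, with a median of 0.18. Beyond 2, 1.52% of them were above and 1.05% below -2. In the list, 34 of the 36 genes had that many counts.

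The scaling between libraries sets the size of these values. When libraries were scaled by total counts alone, all tested genes had a median of -0.31 instead of -0.04 and the list one of 0.45 instead of 0.72. Such a change of scale shifts all genes by nearly the same amount, so the gap of 0.76 between the medians is close to fixed by construction. The genes above 1 were then RRS1, MRTO4 and NCL, 3 in all, and 35 of 36 were still above 0. POLR1B, RRP9 and WDR12 were at only 0.02 on that scale, for which no intervals were taken. Their lower limits with TMM factors were 0.19, 0.18 and 0.21, and that of NOP2 was 0.14. These limits are smaller than the fall of the list median, so whether these genes lie clear of 0 depends on the scaling.

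**Figure D2:**
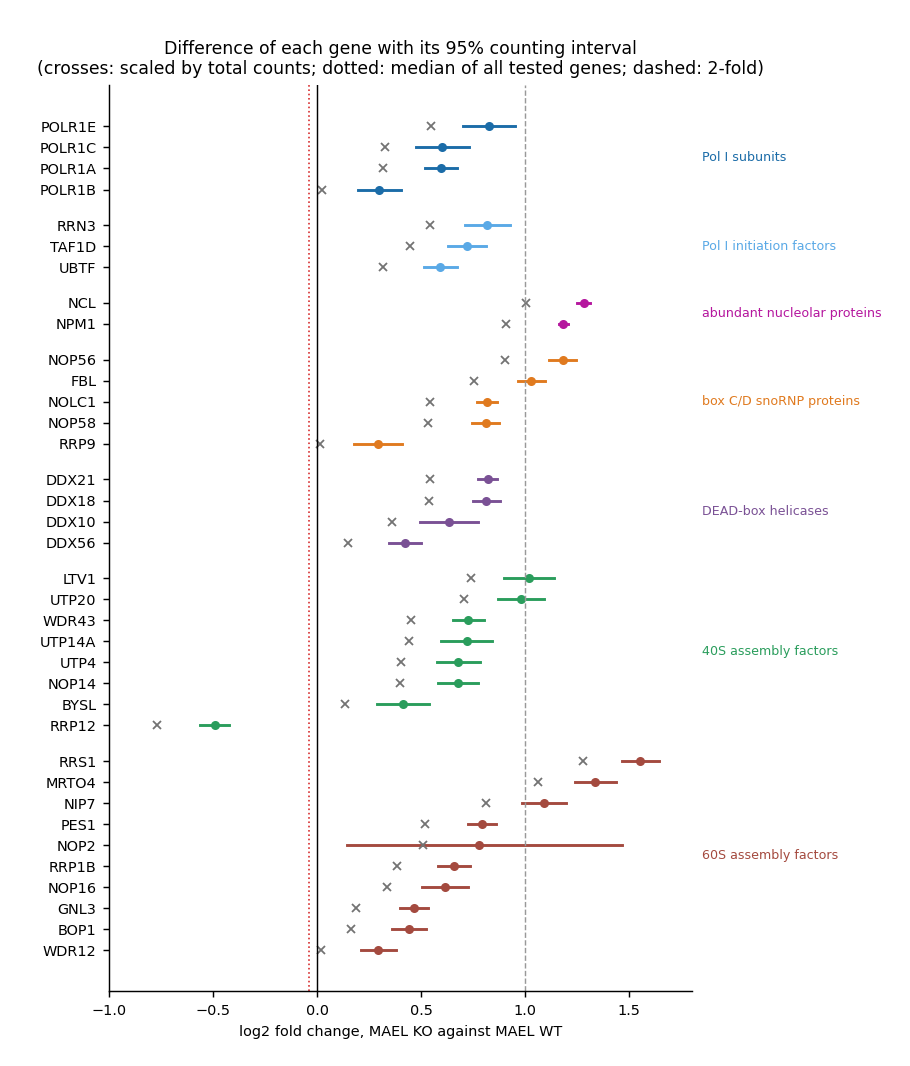
Log2 fold change (MAEL KO over MAEL WT) for each of the 36 genes (points, TMM scaling) with 95% counting intervals (bars), grouped by role, and the same value scaled by total counts (crosses). RRP12 is the only gene left of 0, and RRS1 at 1.55 is farthest to the right.

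The genes took a larger share of the library in MAEL KO. Together they held 0.538% of all counts in MAEL WT (95% interval 0.535% to 0.541%) and 0.831% in MAEL KO (0.827% to 0.835%). NPM1 and NCL alone made up 33.5% and 41.8% of the counts of the list. Without them the share went from 0.358% to 0.484%.

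NPM1 and NCL encode nucleophosmin and nucleolin, the chaperones that fill much of the nucleolus. NPM1, on chromosome 5 of GRCh38 from 171387116 to 171411137, had 21593 normalized counts in MAEL WT and 49051 in MAEL KO, a log2 fold change of 1.18 (95% interval 1.16 to 1.21). NCL, on chromosome 2 from 231453531 to 231483641 on the minus strand, had 11902 and 28938, a log2 fold change of 1.28 (1.25 to 1.31). NCL was thus ahead of NPM1 by 0.10 on the log2 scale, and their intervals did not overlap. Here and below, intervals that lie apart show a gap past counting error only, and variation between libraries was not measured. The pairs of partners were chosen after values had been seen. NPM1 has 45 named pseudogenes in the table, which held 788 and 1658 counts, or 3.40% and 3.65% of those of NPM1. How reads that match both NPM1 and a copy were counted is not known, so its count is uncertain by an amount these values do not measure.

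Subunits of Pol I were moderately higher in MAEL KO. POLR1A, the catalytic largest subunit, had 2245 normalized counts in MAEL WT and 3390 in MAEL KO, a log2 fold change of 0.59 (0.52 to 0.67). POLR1B, the second largest subunit, which completes the active site, had 1390 and 1708, a log2 fold change of 0.30 (0.19 to 0.40). The catalytic pair therefore differed unequally, with POLR1B the lowest of the 4 subunits. POLR1C, which Pol I shares with Pol III, had 830 and 1259 (0.60, 0.47 to 0.73), and genes of the opposite strand cover 18.2% of its exonic bases. POLR1E, a subunit particular to Pol I, had 783 and 1388 (0.83, 0.70 to 0.95).

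The 3 initiation factors were all higher in MAEL KO. RRN3 carries the signal that makes Pol I competent to start, and it had 1060 normalized counts in MAEL WT and 1868 in MAEL KO, a log2 fold change of 0.82 (0.71 to 0.93). TAF1D, a part of the SL1 complex at the rDNA promoter, had 1476 and 2431 (0.72, 0.63 to 0.81). UBTF, which bends and opens active rDNA, had 2142 and 3227 (0.59, 0.51 to 0.67), and its interval lay below that of RRN3. The pseudogenes of RRN3 held 67 and 79 counts, 5.89% and 4.56% of its own.

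The proteins that form or serve box C/D snoRNPs ranged widely. FBL, the methyltransferase fibrillarin, had 2793 normalized counts in MAEL WT and 5698 in MAEL KO, a log2 fold change of 1.03 (0.96 to 1.09). Its core partners NOP56 and NOP58, which hold the guide RNA in place, had 2634 and 5968 (1.18, 1.11 to 1.25) and 2916 and 5114 (0.81, 0.75 to 0.88). The intervals of these 3 partners did not overlap, with NOP56 0.37 above NOP58 on the log2 scale. NOLC1, a chaperone that brings snoRNPs to the nucleolus, had 5449 and 9594 (0.82, 0.77 to 0.86). RRP9, which is bound to the U3 snoRNA alone, had 1120 and 1372 (0.29, 0.18 to 0.41) and stood below the other 4.

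Helicases of the DEAD-box family unwind RNA in the precursor. DDX21, which also acts at Pol I genes, was the most abundant of them, with 5958 normalized counts in MAEL WT and 10517 in MAEL KO, a log2 fold change of 0.82 (0.77 to 0.87). DDX18 had 3113 and 5473 (0.81, 0.75 to 0.88), and DDX10 had 674 and 1046 (0.63, 0.49 to 0.78). DDX56, an enzyme of 60S assembly, had 2302 and 3087 (0.42, 0.34 to 0.50), below the intervals of DDX18 and DDX21.

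The 40S assembly factors held the single exception. RRP12, an export factor of pre-ribosomes, lies on chromosome 10 from 97356358 to 97426076 on the minus strand and had 4186 normalized counts in MAEL WT and 2974 in MAEL KO, a log2 fold change of -0.49 (-0.56 to -0.42). In the MAEL WT library it was the most abundant of the 8 by counts, and in MAEL KO it was second to WDR43. With total counts RRP12 was at -0.77, and under every alternative tried it lay between that value and -0.49.

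The other 7 factors of 40S assembly were higher in MAEL KO. LTV1, which is released late in 40S maturation, had 803 normalized counts in MAEL WT and 1625 in MAEL KO (1.02, 0.90 to 1.14), and UTP20, a large scaffold, had 962 and 1898 (0.98, 0.87 to 1.09). Parts of the small subunit processome, which builds on the nascent precursor, followed. WDR43 had 2288 and 3783 (0.73, 0.65 to 0.80), UTP14A 875 and 1441 (0.72, 0.60 to 0.84), UTP4 1203 and 1925 (0.68, 0.57 to 0.78) and NOP14 1420 and 2267 (0.67, 0.58 to 0.77). BYSL, or bystin, had 909 and 1209 (0.41, 0.29 to 0.54) and was the lowest of these 7. The antisense gene NOP14-AS1 covers 17.1% of the exonic bases of NOP14 and had 282 and 433 counts, and since the strand setting of the counting is not known, reads of such pairs may not have been told apart. In LTV1 34.8% of the exonic bases are shared with other genes on the same strand.

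Among the 60S assembly factors were the largest differences of the list. RRS1 brings the 5S particle into the young large subunit, is encoded by a single exon on chromosome 8 from 66429028 to 66430733, and had 1292 normalized counts in MAEL WT and 3795 in MAEL KO, a log2 fold change of 1.55 (1.46 to 1.65), or 2.94-fold. MRTO4, which holds the place of the stalk protein on the pre-60S particle, had 1126 and 2846 (1.34, 1.24 to 1.44) and lies on chromosome 1 from 19251539 to 19260128. NIP7 had 1024 and 2180 (1.09, 0.98 to 1.20), and the gene COG8 on the opposite strand shares 20.2% of its exonic bases. RRS1 and MRTO4 were the first and the second gene of the list, above 95.7% and 94.1% of all tested genes.

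PES1, BOP1 and WDR12 form the PeBoW complex, which is needed for cutting of the 60S precursor. PES1 had 2748 normalized counts in MAEL WT and 4763 in MAEL KO (0.79, 0.73 to 0.86), BOP1 2139 and 2902 (0.44, 0.36 to 0.52) and WDR12 2125 and 2607 (0.29, 0.21 to 0.38). PES1 lay above both partners by 0.35 and 0.50 on the log2 scale with intervals apart, while those of BOP1 and WDR12 overlapped. RRP1B, a nucleolar partner of a protein phosphatase, had 2126 and 3354 (0.66, 0.58 to 0.74), and NOP16 1106 and 1693 (0.61, 0.50 to 0.72), and it shares exonic bases with ARL10 and HIGD2A of the opposite strand, which had 143 and 41 counts and 599 and 749 counts. GNL3, the nucleolar GTPase nucleostemin, had 3122 and 4309 (0.46, 0.40 to 0.53).

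NOP2, a methyltransferase of the large subunit RNA, stood apart by its low count. It had only 34 counts in MAEL WT and 51 in MAEL KO, a log2 fold change of 0.78 with the widest interval of the list (0.14 to 1.47). Its deposited FPKM of 0.332 and 0.574 was the lowest of the 36 genes in both libraries, the next being DDX10 at 3.82 and 5.91. In GENCODE 29, 54.4% of the exonic bases of NOP2 are also exonic in AC006064.6, a protein-coding gene of the same strand with 0 counts in both libraries. Whether reads of the shared bases were left uncounted was not tested.

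**Figure D3:**
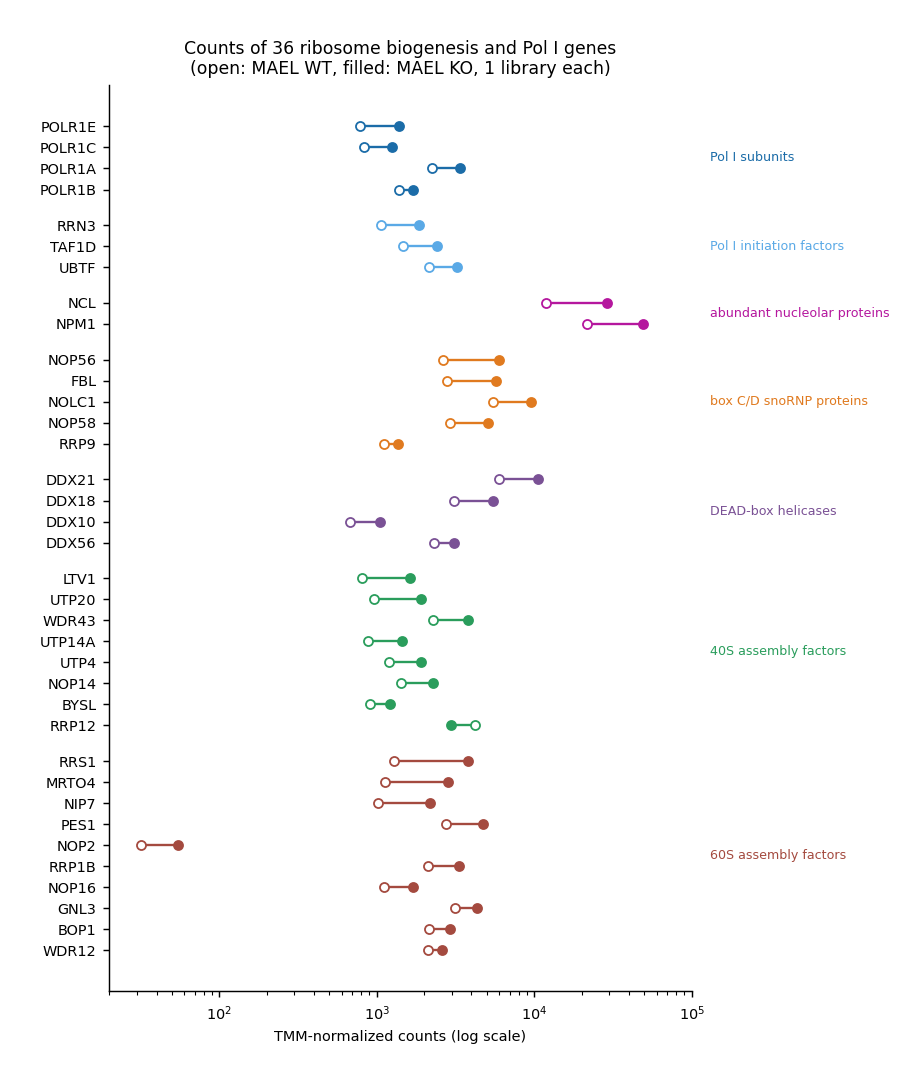
TMM-normalized counts of each of the 36 genes in MAEL WT (open circles) and MAEL KO (filled circles) on a log axis, grouped by role, with 1 library each. NPM1 and NCL lie above all others, NOP2 lies far below at 31.7 and 55.0, and RRP12 is the only gene with the filled circle on the left.

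By level per length, NPM1 was the highest of the list in both libraries, with deposited FPKM values of 277 in MAEL WT and 627 in MAEL KO, followed by NCL with 84.2 and 204. The next 3 were NOLC1, FBL and DDX21 in MAEL WT, at 67.3, 63.0 and 58.2, and FBL, NOLC1 and RRS1 in MAEL KO, at 128, 118 and 109. RRP12 moved from rank 14 to 27 of 36 and MRTO4 from rank 19 to 11. Summed over the 36 genes, FPKM went from 1138 to 2163. The sum over all tested genes also rose, from 267074 to 335536. Across the 36 genes the log2 fold change went with the log2 of the mean FPKM, with a Pearson r of 0.31 and a Spearman rho of 0.41, and without NPM1 and NCL these were 0.18 and 0.31. Over 17875 tested genes they were 0.31 and 0.32, and over the 5515 with at least 1000 counts 0.18 and 0.21. These are descriptions across genes of the same 2 libraries, which share depth and scaling.

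**Figure D4:**
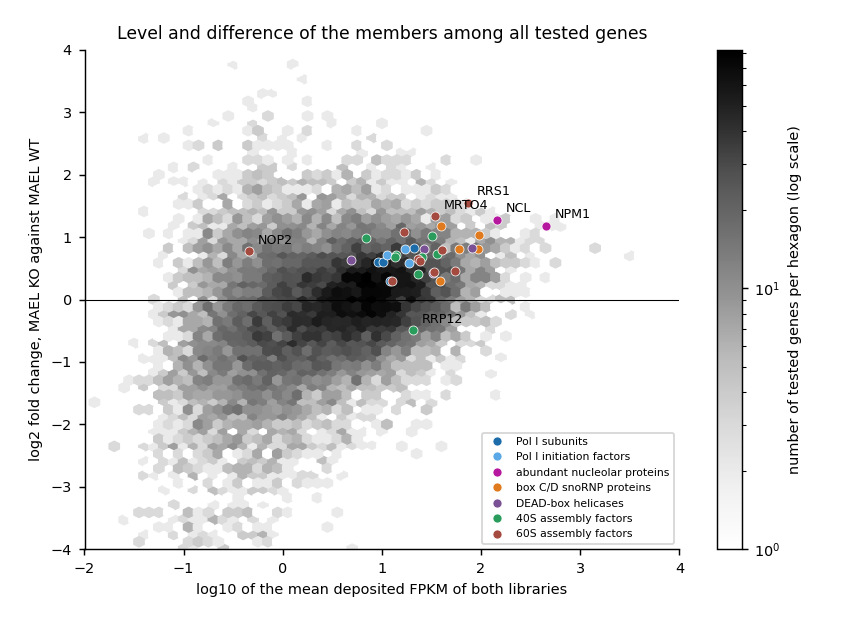
Log2 fold change against the log10 of the mean deposited FPKM, with the 36 genes colored by role over the density of tested genes in grey hexagons. A total of 146 of 17887 tested genes lie outside the axes, and all listed genes except RRP12 lie above 0.

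The genes are spread over 19 chromosomes. The median of the tested genes of those chromosomes was between -0.22 and 0.09, and after it was subtracted the median of the list was 0.77, with 35 genes above 0. Within 9 of the genes lie 34 annotated small RNA genes, mostly snoRNAs, which had 67 counts in MAEL WT and 74 in MAEL KO in all. In GNL3, which hosts 6 of them, the nested genes had 50 and 25 counts, while GNL3 itself was higher in MAEL KO. The nested genes of NCL (4 and 17), NOP58 (1 and 11), TAF1D (6 and 13) and POLR1C (0 and 2) went the other way. Those of WDR43 had 6 counts in each library, and those of BOP1, NOP56 and UBTF had 0. All these counts are low.

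Other genes of the pathway were taken from lists chosen by function, with earlier results of these data known. Of 130 tested genes, 113 had a log2 fold change above 0 (86.9%), and the median was 0.41. Above 0 were 48% of all tested genes and 61.8% of those with at least 1000 counts. In these lists 9 genes were above 1 (6.92%, against 10.2% of all tested genes) and none was below -1 (against 16.5%). With total counts their median was 0.13 and none was above 1. The number above 0 depends on the scaling and was not counted on that scale. Further factors of rDNA transcription were split, with TAF1B, another SL1 subunit, at 1.23 (1.04 to 1.43) and the Pol I subunit CD3EAP at 1.07 (0.81 to 1.35), but TAF1A of the same SL1 complex at -0.75 (-1.05 to -0.46) and the Pol I subunit ZNRD1 at -0.72 (-0.92 to -0.52). The median of these 9 genes was 0.56.

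Further 40S factors had a median of 0.41, with 45 of 49 above 0 (91.8%, against 48% of all tested genes). IMP3, a U3 snoRNP protein, was highest at 1.11 and the helicase DDX49 lowest at -0.46 among those with at least 100 counts. Further 60S factors had a median of 0.37, with 39 of 46 above 0 (84.8%). They ranged from LAS1L, an endonuclease of the spacer between the rRNAs, at 1.07 to the GTPase EFL1 at -0.44. For other snoRNP and exosome proteins the median was 0.42, with 24 of 27 above 0 (88.9%). EXOSC9 and EXOSC10 of the RNA exosome were both at 1.04, while EXOSC1 was at -0.49.

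Related machines were set beside the list. Of all tested genes 48% were above 0, and of those with at least 1000 counts 61.8%. The 7 subunits particular to Pol II were all above 0, with a median of 0.51, from 0.12 in POLR2I to 0.73 in POLR2C. The 11 Pol III subunits had a median of -0.21, and 5 of them were above 0, from POLR3D at -1.13 (-1.26 to -1.01) to POLR3K at 0.75 (0.57 to 0.92). Of the 5 subunits that the polymerases share, POLR2L was highest at 1.54 and POLR2K lowest at 0.22. All 79 cytosolic ribosomal protein genes were above 0, with a median of 0.85, from RPL9 at 0.30 to RPL7A at 1.55. Above 1 were 23 of them (29.1%, against 10.2% of all tested genes and 10.5% of those with at least 1000 counts). These values are with TMM factors. Scaling by total counts, which lowers all values, was not applied to these lists, so the counts above 0 may be smaller on that scale. With 1 library per group, differences between these lists were not tested.

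The 20 cell cycle genes taken beside the list differed more, with a median of 2.21, from FEN1 at 1.87 to RRM2 at 3.40. All were above 1, where 10.2% of all tested genes were. They moved in the same direction as the ribosome biogenesis genes, and their part in the result was not tested. The study itself reported slower proliferation of MAEL KO than of wild-type PLC8024 cells. How these RNA values relate to that growth was not tested. MYC had 3014 counts in MAEL WT and 3943 in MAEL KO, a log2 fold change of 0.60 (0.53 to 0.67). By assays other than this sequencing, the study reported lower c-Myc mRNA and protein after MAEL knockout, the opposite direction. MAX, the partner of MYC, was at -0.90 (-1.04 to -0.76), and MYCL, a relative of MYC, was lowest at -1.06 (-1.41 to -0.74). The proteins that compete with MYC for MAX went both ways, with MXD1 at -0.77 (-1.06 to -0.48) and MXI1 at -0.27 (-0.40 to -0.15), but MXD4 at 0.28 (0.17 to 0.38) and MNT, the highest of the network, at 0.65 (0.51 to 0.79). MXD3, of the same family, was at 0.18 with an interval that included 0. The 11 tested genes of this network had a median of 0.06, with 6 above 0 (54.5%, against 48% of all tested genes). These values are with TMM factors and were not taken with total counts, which lower all values. The direction of small values such as that of MXD4 therefore depends on the scaling.

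**Figure D5:**
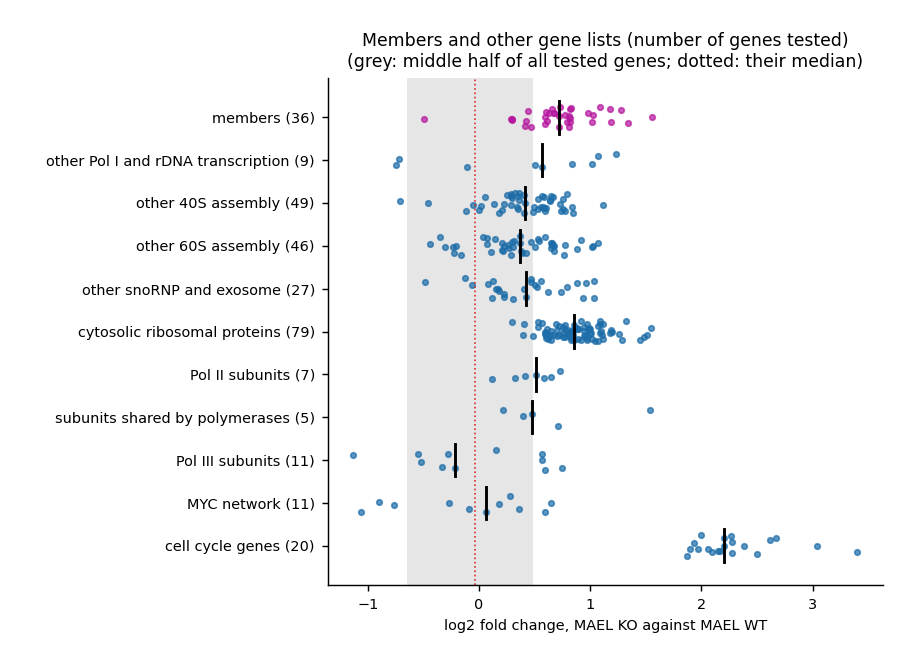
Log2 fold change (MAEL KO over MAEL WT) for the 36 genes (magenta) and 10 other lists (blue), 1 point per gene, with the median of each list as a black line and the range between the quartiles of all tested genes in grey. The cell cycle genes lie farthest to the right at a median of 2.21, and the Pol III subunits have the lowest median at -0.21.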

How the data were processed

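RNA of 1 MAEL WT and 1 MAEL KO library of PLC8024 cells was sequenced on a HiSeq platform. The authors deposited whole-number read counts per gene and FPKM values, which they computed from the same counts, the gene length and a library size rescaled between libraries (1.10 and 0.910 times the total counts). The submitters' processing notes name HISAT2 2.0.5, featureCounts 1.5.0-p3 and build hg19, but all 58735 listed genes have the GRCh38 coordinates of GENCODE 29. Strand and multi-overlap settings are not given in the sources used here. The genes and lists were chosen with earlier results of these data known.

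Counts were scaled by TMM in edgeR 4.0.16 (factors 1.10 and 0.909) in R 4.3.3, with DESeq2 1.42.0 for other size factors. Genes needed 10 counts in 1 library, and 1 was added before the log2. Intervals are exact Clopper-Pearson limits, which cover counting error only. Since reads have no molecular identifiers, they are not independent molecules, and 3 counts, the floor, equal 0.151 and 0.144 CPM. The column names PLC5 with WT or KO were matched to the labels by these endings. All 36 genes were named, with the 2 highest and 2 lowest of other lists among genes with at least 100 counts and any gene of the MYC network with as many, although not every gene so covered is printed. Python 3.11.15, SciPy 1.17.1 and pandas 2.3.3 were used, and the steps were tested on simulated data. The simulated counts were Poisson draws without variation between clones or cultures, so they check the computation only. Alternatives were other scalings, added counts, filters, protein-coding genes alone and chromosome medians. The motif searches, the pairs of partners and the subset with 1000 counts were added after values had been seen.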

Additional observations from a re-analysis of the deposited data

How the results depend on the processing

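No paired analysis was possible because there is 1 library per group, and for the same reason no library could be left out. Over the 9 alternatives, no gene of the list changed its direction. With total counts the median of the list was 0.45 and 3 genes were above 1, the other pathway genes had a median of 0.13 and 0 above 1, and 1174 of all tested genes were above 1 in place of 1827. Genes above 1 then made up 22.6% of those past 1 in either direction, against 38.2% with TMM factors. All tested genes above 1 and below -1, 1827 and 2951 by the chosen filter, were 5304 and 5745 with at least 1 count and 1110 and 1101 with at least 100 counts, and 1915 were below -1 among protein-coding genes alone. With protein-coding genes alone 6 genes of the list and 6 other pathway genes were above 1, in place of 8 and 9. Under the filter of at least 100 counts NOP2 was not tested. Depth limits NOP2 most, while all other genes of the list had at least 723 counts in each library.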
